A study of Homo sapiens with 9 samples.

Results

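The cytosolic ribosomal protein genes encode the proteins of the ribosomes that translate nuclear mRNAs in the cytosol. They were taken as all probe sets annotated with 1 gene whose symbol follows the RPL, RPS, RPLP or RPSA naming pattern, which gave 94 of 33297 probe sets and 61 of 18417 genes. Of these genes, 21 encode small subunit proteins, 34 encode large subunit proteins, 2 encode proteins of the P-stalk and 4 are paralogs with an L suffix (RPL3L, RPL10L, RPL39L and RPS27L). The rule itself used symbols and no measured value, but it was set with earlier results of these data known. RefSeq lists 81 protein-coding genes with such symbols. The 20 without a probe set of their own were not analysed here; 11 of them are named in probe sets shared with other genes.

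The arrays carried total RNA of cells labelled Hep3B, a human hepatocellular carcinoma cell line, in 3 groups of 3. The sample titles begin with HUH instead, and this conflict was not resolved. The YAP siRNA group was transfected with a small interfering RNA (siRNA) against YAP, the coactivator encoded by YAP1 that the Hippo pathway restrains. The nonsense siRNA group was transfected with a scrambled control siRNA, and the untreated group received no transfection. Transfected cells were grown for 24 h, transfected with Oligofectamine and kept for a further 24 h before RNA was taken. For untreated cells 24 h of culture is listed and no later time. If they were taken then, transfection and time in culture cannot be told apart in comparisons with them. The design asked what changes when YAP is lowered, with nonsense siRNA and untreated cells as the controls. The knockdown was transient and in 1 cell line, and the sources used here give no siRNA sequences. Nothing states whether the 3 samples of each group were separate cultures, and p-values measure only the spread between them, which may be technical.

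Each ribosome needs nearly all of its proteins in equal numbers, and most ribosomal protein genes are single active copies that are expressed together at high levels. Their mRNAs typically begin with a C followed by an unbroken run of pyrimidines, the 5′ terminal oligopyrimidine (TOP) tract, through which mTOR and the RNA-binding protein LARP1 control their translation. Growing liver cells and hepatomas make ribosomes at a high rate. Many ribosomal protein genes also have processed pseudogenes of near-identical sequence, so a probe set can pick up signal from such copies, and values for single genes carry that uncertainty.

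The transcript starts of 10 genes are shown because the TOP tract is the sequence feature that most of the matched genes share. They are examples: 8 genes with a tract, among them RPL31, RPL22 and RPL26, which passed the test between YAP siRNA and nonsense siRNA, and RPS27L and RPL10 without one. Each window runs from 10 bases before the RefSeq start to 20 bases from the start onward (GRCh38.p14), written 5′ to 3′ on the gene's strand, with the TOP tract in capitals.
RPL31: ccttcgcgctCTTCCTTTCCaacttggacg
RPL22: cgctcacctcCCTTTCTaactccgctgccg
RPL26: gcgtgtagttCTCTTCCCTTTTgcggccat
RPL24: atgattctctCTTTCTTTTCgccatctttt
RPS3A: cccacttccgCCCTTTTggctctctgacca
RPS3: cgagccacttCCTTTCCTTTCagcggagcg
RPS6: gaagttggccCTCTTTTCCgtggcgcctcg
RPS27: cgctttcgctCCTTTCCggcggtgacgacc
RPS27L: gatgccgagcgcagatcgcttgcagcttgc
RPL10: ccactctcagaaatatacgtctgtcacagt
The windows lie at chr2:101002279-101002308 on the plus strand for RPL31, chr1:6199576-6199605 on the minus strand for RPL22 and chr17:8383174-8383203 on the minus strand for RPL26. Those of RPL24 and RPS3A lie at chr3:101686699-101686728 on the minus strand and chr4:151099618-151099647 on the plus strand. The RPS3 window is chr11:75399508-75399537 on the plus strand, that of RPS6 is chr9:19380217-19380246 on the minus strand, and that of RPS27 is chr1:153990752-153990781 on the plus strand. RPS27L lies at chr15:63157458-63157487 on the minus strand and RPL10 at chrX:154398055-154398084 on the plus strand. RPS27 begins with a tract, while its paralog RPS27L has none at its listed start, and neither has RPL10.

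RefSeq starts were matched for 50 of the 61 genes. Of these, 33 (66%) began with a tract of at least 5 bases, a C followed by pyrimidines, against 4.04% of 27305 promoters. The tracts were 5 to 16 bases long, with a median of 8. In the 300 bases from 250 before to 50 after the start, both strands were also searched for short motifs. The ETS-type motif CCGGAAG occurred in 36% of the ribosomal protein promoters and 10.7% of all promoters, and TCTCGCGA in 22% and 1.19%. AAGATGGC, a YY1-type motif, occurred in 8% and 3.03%, and TATAAA in 10% and 12%. CATTCC, the core recognised by the TEAD factors through which YAP acts, occurred in 6% of the ribosomal protein promoters (RPL10, RPL38 and RPL7A) and 14% of all promoters. A match only says that these letters are present in the window.

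YAP1 itself was lower after YAP siRNA. Its log2 signal was 7.54, 7.52 and 7.48 on the YAP siRNA arrays, 8.66, 8.75 and 8.68 on the nonsense siRNA arrays, and 8.78, 8.62 and 8.69 on the untreated arrays. The YAP siRNA arrays lay below all 6 control arrays (two-sided exact permutation p = 0.0119). Array medians over all genes lay between 7.29 and 7.34. The 9 measured hepatocyte and hepatoma markers, ALB and AFP among them, were above the median gene on every array, while the leukocyte markers PTPRC (5.99 on average) and CD3E (6.68) were below the median gene signal of 7.31. Of the 4 leukocyte markers measured, LYZ and CD68 were above it on every array, as were COL1A1 and COL1A2 of 6 stromal and endothelial markers. COL1A2 was at 8.51, 8.64 and 8.60 after YAP siRNA and 8.04, 8.25 and 8.19 after nonsense siRNA, a difference of 0.43 (limma adjusted p = 0.000538). Untreated cells lay between, at 8.38, 8.35 and 8.37. The differences from them were 0.22 for YAP siRNA and -0.21 for nonsense siRNA (limma adjusted p = 0.0710 and 0.106). COL1A1 (0.09, limma adjusted p = 0.516) and the other measured stromal, endothelial and leukocyte markers did not pass between YAP siRNA and nonsense siRNA. The part of this in the results below was not tested.

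The 3 nonsense siRNA arrays did not look alike for these genes. Counting for each array the genes that lay above their own median over the 9 arrays, nonsense siRNA replicate 1 had 50 of 61 and replicate 3 had 43, while replicate 2 had 23 and the YAP siRNA and untreated arrays had 20 to 23. Nonsense siRNA replicate 2 was the lowest of its group for 39 of the 61 genes (63.9%), against 33.8% of all genes. This array was also the lowest of its group for 50 of 74 mitochondrial ribosomal protein genes and 8 of 9 hepatocyte markers. The median SD within a group was 0.0605 for the YAP siRNA arrays, 0.105 for the nonsense siRNA arrays and 0.0762 for the untreated arrays, while over all genes it was 0.0637, 0.0627 and 0.0646. The interquartile range of the probe set signals was 1.78 and 1.79 on nonsense siRNA replicates 1 and 3, against 1.73 on replicate 2 and 1.72 to 1.77 on the other arrays. The part of these array differences in the results below was not tested, and results are given with and without single nonsense siRNA arrays.

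**Figure D1:**
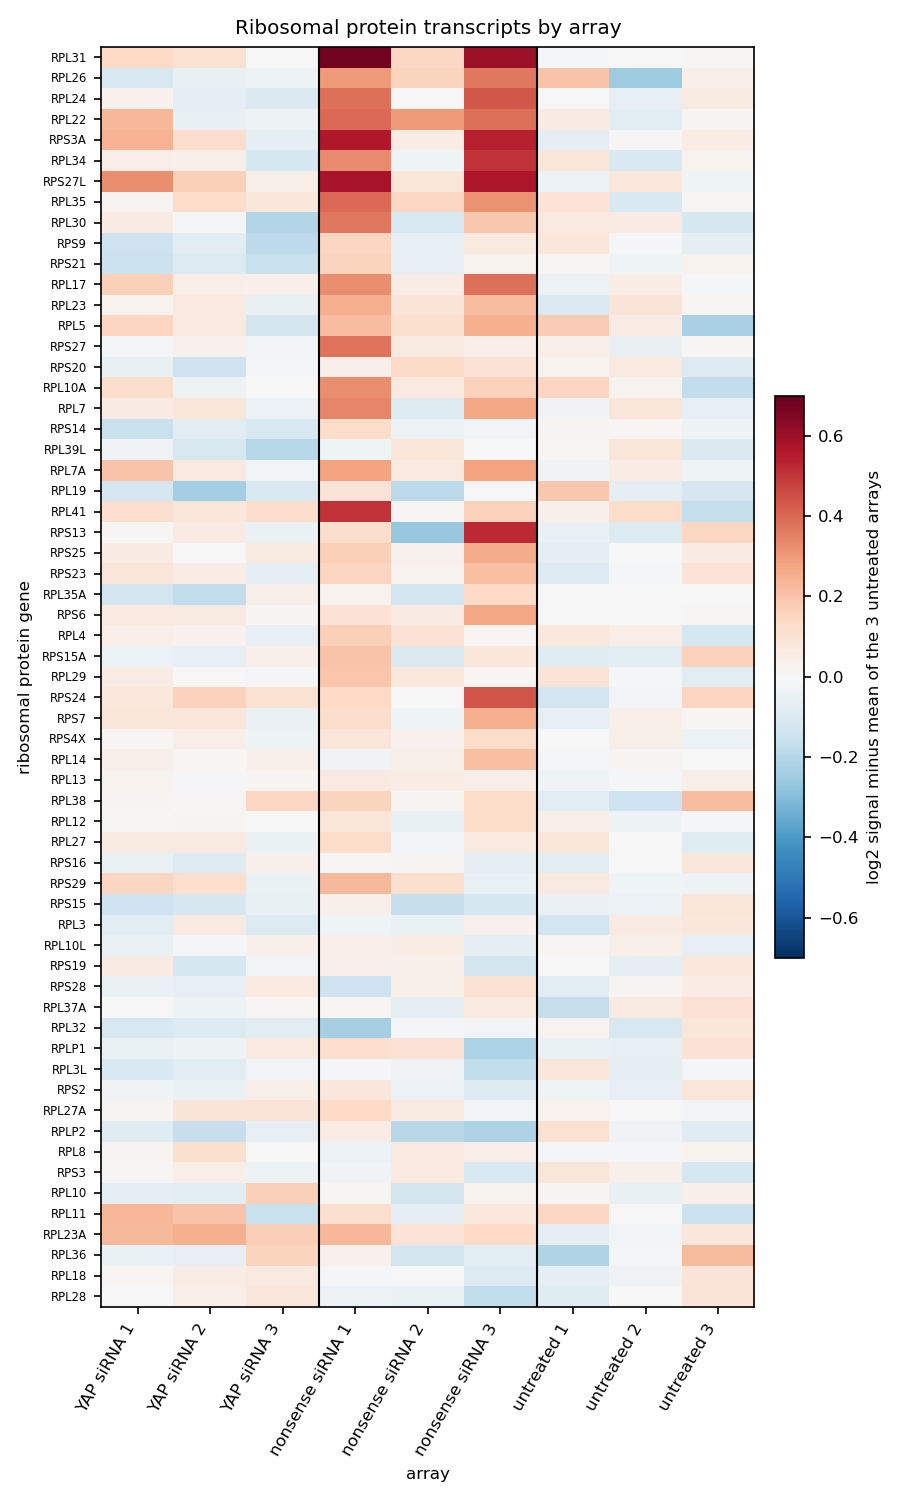
Log2 signal of the 61 ribosomal protein genes (rows, ordered by the difference between YAP siRNA and nonsense siRNA) on the 9 arrays (columns), as the difference from the mean of the 3 untreated arrays, on a colour scale from -0.7 to 0.7. Nonsense siRNA replicates 1 and 3 are high for many genes near the top of the plot, and replicate 2 is closer to the YAP siRNA and untreated arrays.

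Ribosomal protein probe sets were bright, and their differences between groups were below 0.5 on the log2 scale. Their mean log2 signal ran from 6.89 for RPL10L to 12.39 for RPS3 with a median of 10.06, and 60 of 61 lay above the median gene. No filter on low signal was applied, so all 61 entered every comparison. Between YAP siRNA and nonsense siRNA the differences ran from -0.39 to 0.13 on the log2 scale, between nonsense siRNA and untreated cells from -0.12 to 0.48, and between YAP siRNA and untreated cells from -0.15 to 0.22. Each pair of these comparisons shares a group of 3 arrays, so they are not independent. The 95% intervals lay within 0.5 of 0 for 57 of 61 genes between YAP siRNA and nonsense siRNA (98.5% of all genes) and for 57 between nonsense siRNA and untreated cells (99.3% of all genes). Within 0.25 of 0 lay 33 (78.2% of all genes) and 35 (72.5% of all genes).

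After YAP siRNA, 3 large subunit transcripts fell relative to nonsense siRNA and 0 genes of the family rose. In RNA of whole cultures, fewer cells that make a transcript and less of it per cell cannot be told apart. The 3 are 4.92% of the family, against 4.53% of all genes that passed in either direction. Over all genes 2.61% were lower and 1.92% were higher. A gene passed at a Benjamini-Hochberg adjusted p under 0.05 from limma over all 18417 genes. At an unadjusted p under 0.05 there were 16 of 61 genes (26.2%), against 15.8% of all genes. This count was 8 without nonsense siRNA replicate 1 and 29 without nonsense siRNA replicate 2. The share of all genes was not computed for those 2 fits, so their counts cannot be set against 15.8%. The median difference was -0.08, against 0.01 over all genes, and 49 of 61 differences (80.3%) were below 0, against 44.3% of all genes.

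RPL22, which encodes an RNA-binding protein on the surface of the large subunit, had log2 signals of 8.23, 7.95 and 7.97 after YAP siRNA and 8.40, 8.30 and 8.39 after nonsense siRNA. The groups did not overlap, and YAP siRNA replicate 1 lay closest to the nonsense siRNA arrays. RPL22 fell by 0.31 (SE 0.0711, limma adjusted p = 0.0176). RPL31, whose protein sits near the exit of the peptide tunnel, had 9.87, 9.84 and 9.73 after YAP siRNA and 10.41, 9.88 and 10.34 after nonsense siRNA. The highest YAP siRNA array and nonsense siRNA replicate 2 were almost equal, and the other 2 nonsense siRNA arrays were clearly higher. RPL31 fell by 0.39 (SE 0.0999, limma adjusted p = 0.0344). RPL26, also a protein near the tunnel exit and known to bind the p53 mRNA, had 7.75, 7.81 and 7.83 after YAP siRNA and 8.16, 8.02 and 8.23 after nonsense siRNA. All YAP siRNA arrays lay below all nonsense siRNA arrays, and RPL26 fell by 0.34 (SE 0.0894, limma adjusted p = 0.0404).

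None of the 3 calls between YAP siRNA and nonsense siRNA held in every fit on 8 of the 9 arrays. The RPL22 call was lost in 4 of 9 such fits, with the highest limma adjusted p (0.101) in the fit that dropped YAP siRNA replicate 2. For RPL26 it was lost in 6 (highest limma adjusted p 0.162, nonsense siRNA replicate 3 dropped) and for RPL31 also in 6 (0.200, nonsense siRNA replicate 1 dropped). Without nonsense siRNA replicate 2, 13 genes of the family were lower and 0 higher, while over all genes 816 were lower and 415 higher (6.68% in either direction). In that fit RPL31 was at -0.56 and RPL24 at -0.45. Without replicate 1 the family had 0 calls (2.31% of all genes passed), and likewise without replicate 3 (2.7% of all genes). With all probe sets tested instead of 1 per gene, 0 of the 94 passed (lowest limma adjusted p 0.124, RPL22), while 1.27% of all probe sets passed.

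RPL24, which forms a bridge between the subunits, came closest to passing. Its log2 signal was 10.94, 10.85 and 10.82 after YAP siRNA and 11.30, 10.91 and 11.35 after nonsense siRNA, so the groups overlapped, and the difference was -0.32 (limma adjusted p = 0.0553). Among the other large subunit genes the values ran down to -0.28 for RPL34 and up to 0.13 for RPL28. RPL28 and RPL18 were the only family members whose YAP siRNA arrays all lay above the nonsense siRNA arrays (3.28%, against 11.5% of all genes), and neither passed. RPL5 and RPL11, whose proteins bind the 5S rRNA and the p53 regulator MDM2, were at -0.16 and 0.05 (limma adjusted p = 0.441 and 0.879).

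Small subunit transcripts gave 0 calls by limma (4.53% of all genes passed). At an unadjusted p under 0.05 there were 6 of 21, against 15.8% of all genes. Of the 21 differences 19 were below 0 (44.3% of all genes), with a median of -0.08 (0.01 over all genes). RPS3A, a protein at the mRNA exit of the small subunit, had 10.56, 10.44 and 10.25 after YAP siRNA and 10.88, 10.37 and 10.86 after nonsense siRNA. Nonsense siRNA replicate 2 lay inside the range of the YAP siRNA arrays, and the difference of -0.29 did not pass (limma adjusted p = 0.188). RPS9, RPS14, RPS20, RPS21 and RPS27 had no overlap between the groups, with differences from -0.19 to -0.14. In all, 11 genes of the family had every YAP siRNA array below every nonsense siRNA array (18.0%, against 8.71% of all genes). RPS6, the substrate of the S6 kinases downstream of mTOR, was at -0.09 (limma adjusted p = 0.513) and RPS3 at 0.03 (0.898).

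The P-stalk proteins recruit the GTPases of translation. RPLP1 was at -0.0024 and RPLP2 at 0.02, and neither passed. Among the paralogs, RPL10L and RPL39L are known from testis and RPL3L from muscle, while RPS27L is a p53 target. RPL10L was at -0.02, RPL3L at 0.0012, RPL39L at -0.13 and RPS27L at -0.23, and none passed. RPS27L had log2 signals of 8.10, 7.94 and 7.82 after YAP siRNA and 8.35, 7.86 and 8.34 after nonsense siRNA, so nonsense siRNA replicate 2 again lay among the YAP siRNA arrays.

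**Figure D2:**
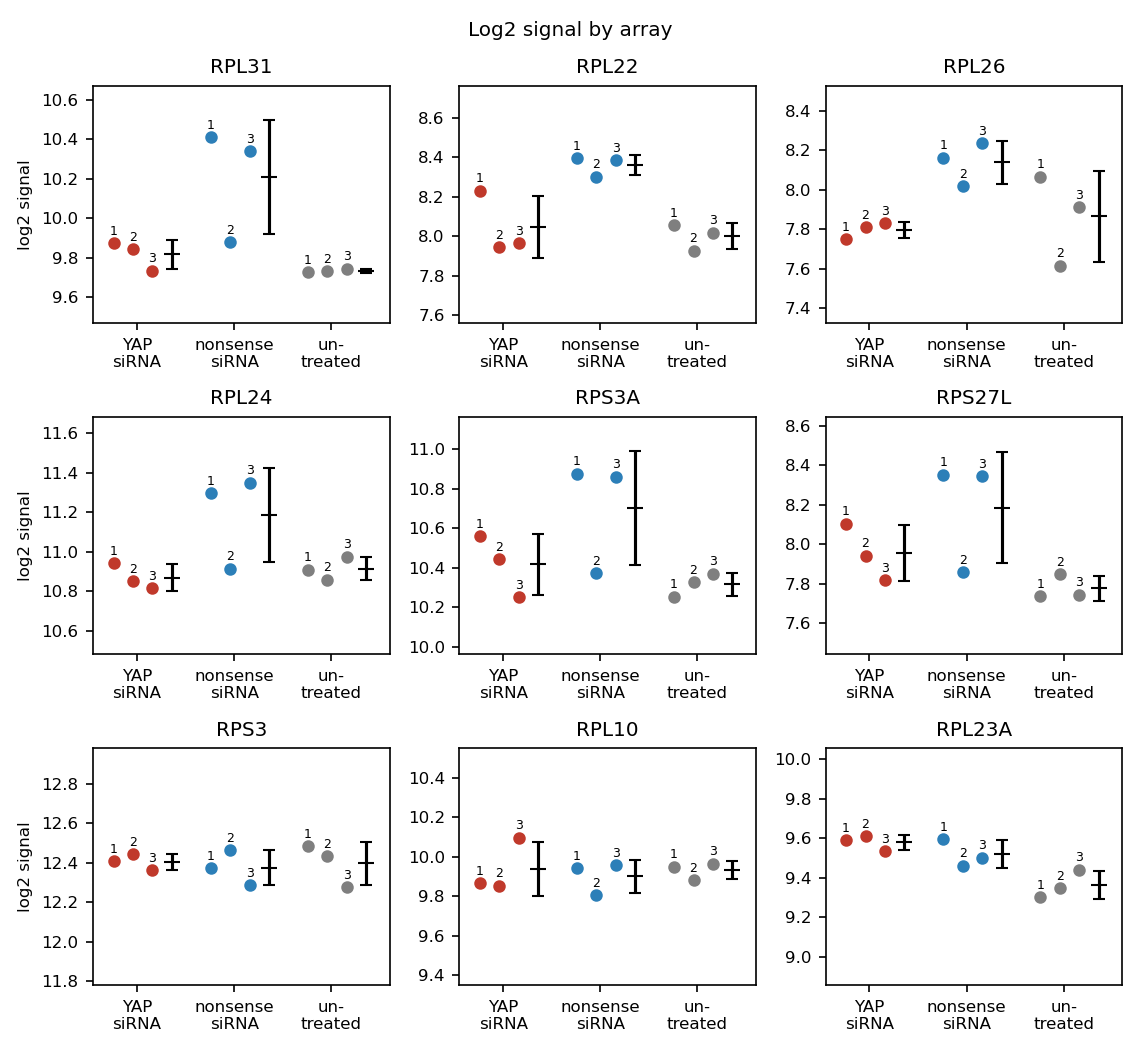
Log2 signal on each array (points, numbered by replicate) for 9 ribosomal protein genes, with the mean and SD of the 3 arrays of each group at the right of the points; each panel spans the same range of log2 signal. In RPL31, RPL24, RPS3A and RPS27L the nonsense siRNA replicates 1 and 3 stand above replicate 2, which lies near the YAP siRNA arrays; RPL22 and RPL26 separate the YAP siRNA and nonsense siRNA groups, and RPS3 and RPL10 overlap in all groups.

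Nonsense siRNA against untreated cells compares transfected control cells with cells that were not transfected. It gave 2 rises, RPL22 and RPL31, and 0 falls in the family. These are 3.28% of the family, against 0.614% of all genes that passed in either direction and 0.337% that were higher. At an unadjusted p under 0.05 there were 18 of 61 genes (29.5%), against 19.5% of all genes. The median difference was 0.08, against -0.02 over all genes, and 46 differences (75.4%) were above 0, against 40.7% of all genes, and 15 (24.6%) were below 0, against 59.3%.

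RPL22 was 8.40, 8.30 and 8.39 after nonsense siRNA and 8.06, 7.93 and 8.02 in untreated cells, and it rose by 0.36 (SE 0.0711, limma adjusted p = 0.0399). RPL31 was 10.41, 9.88 and 10.34 after nonsense siRNA and 9.73, 9.73 and 9.74 in untreated cells. All its nonsense siRNA arrays were higher, replicate 2 by the smallest margin, and it rose by 0.48 (SE 0.0999, limma adjusted p = 0.0453). Both calls were lost without nonsense siRNA replicate 1 (limma adjusted p = 0.227 for RPL22 and 0.261 for RPL31). Of the 9 fits on 8 arrays RPL22 passed in 4 and RPL31 in 2. In 10 genes every nonsense siRNA array lay above every untreated array (16.4%, against 8.90% of all genes) and in 0 genes below (against 13.8%).

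Of the genes that did not pass, RPS27L had the largest difference, at 0.41 (limma adjusted p = 0.0872), with 8.35, 7.86 and 8.34 after nonsense siRNA and 7.74, 7.85 and 7.74 in untreated cells. RPS3A was at 0.39 (0.105) and RPL35 at 0.28 (0.0720), both also without overlap. For RPS3A the lack of overlap rested on 10.3718 on nonsense siRNA replicate 2 against 10.3714 on untreated replicate 3. Without nonsense siRNA replicate 2, 15 genes of the family were higher and 0 lower, against 1470 of all genes in either direction, and RPL31 was at 0.64, RPS27L at 0.57 and RPS3A at 0.55. Without replicate 1 or replicate 3 the family had 0, and all genes had 11 and 17. The small subunit genes again gave 0 calls (0.614% of all genes passed), with a median of 0.08. At an unadjusted p under 0.05 there were 4 of 21, against 19.5% of all genes. RPLP2 was the lowest of the family, at -0.12 (limma adjusted p = 0.364), and RPLP1 was at -0.0018.

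YAP siRNA against untreated cells gave 0 calls by limma, while 3.09% of all genes passed, 1.63% higher and 1.46% lower. At an unadjusted p under 0.05 there were 3 of 61 genes (4.92%), against 15.8% of all genes. This count was 1 without untreated replicate 1 and 5 without nonsense siRNA replicate 2 or untreated replicate 3. For those fits the share of all genes was not computed. The median difference was 0.01 and that over all genes -0.01, and 37 differences (60.7%) were above 0, against 43.6% of all genes. The 95% interval of every one of the 61 differences lay within 0.5 of 0 on the log2 scale (99.0% of all genes), and that of 47 (77.0%, against 76.9% of all genes) within 0.25.

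RPL23A, whose protein docks the signal recognition particle at the tunnel exit, came closest. It had log2 signals of 9.59, 9.61 and 9.54 after YAP siRNA, 9.60, 9.46 and 9.50 after nonsense siRNA and 9.30, 9.35 and 9.44 in untreated cells. Both transfected groups lay above the untreated arrays. Its difference between YAP siRNA and untreated cells was 0.22 (SE 0.0566, limma adjusted p = 0.0519), and it passed in 3 of the 9 fits on 8 arrays, those that dropped YAP siRNA replicate 3, nonsense siRNA replicate 2 or untreated replicate 3. RPS9 and RPS21 were at -0.13 each (limma adjusted p = 0.316 and 0.270), with no overlap. In all, 2 genes (RPL23A and RPS6) had every YAP siRNA array above the untreated ones (3.28%, against 10.2% of all genes) and 4 below (6.56%, against 10.3%). RPL22 was at 0.05, RPL31 at 0.08 and RPL26 at -0.07 in this comparison, and none of them passed.

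**Figure D3:**
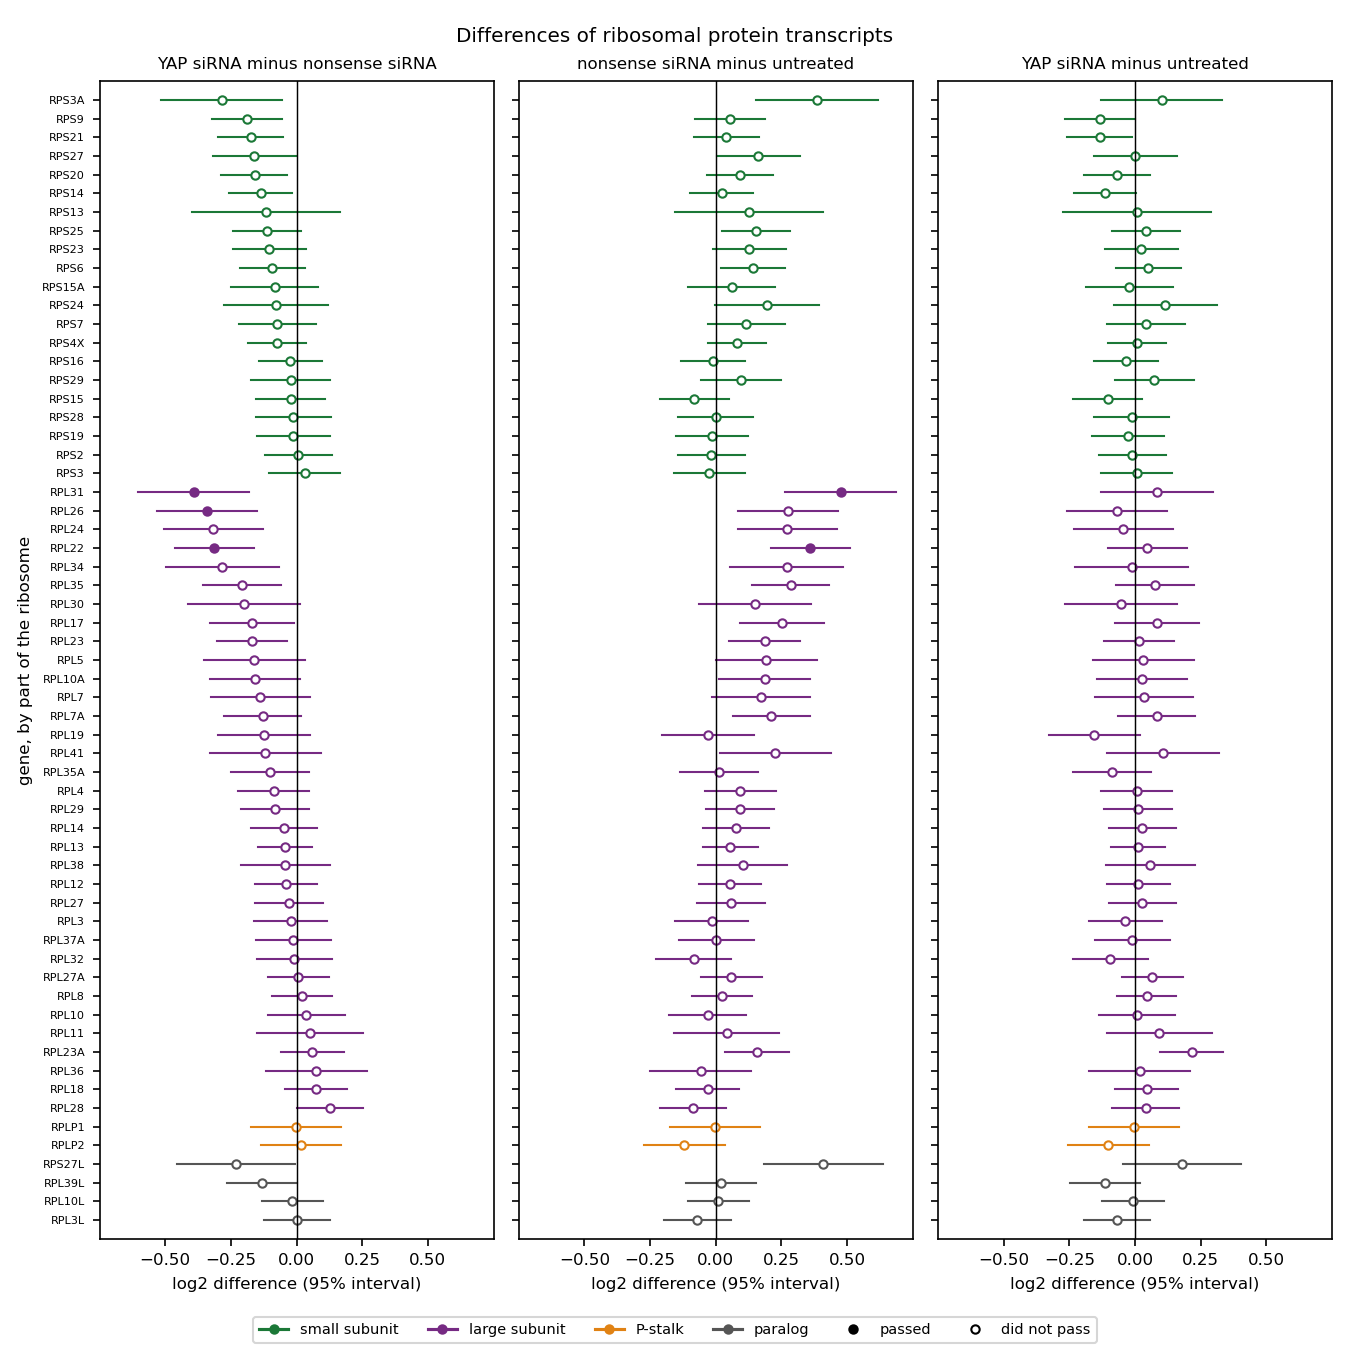
Log2 differences (points) with 95% intervals (lines) of the 61 ribosomal protein genes in the 3 comparisons, grouped by the part of the ribosome and ordered within it by the first comparison; filled points passed at a limma adjusted p under 0.05. Filled points are RPL31, RPL26 and RPL22 in the first panel and RPL31 and RPL22 in the second, and the panel of YAP siRNA against untreated cells has none.

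In the family, 21 genes had more than 1 probe set, up to 5 for RPS3A. In YAP siRNA against nonsense siRNA all probe sets of 16 of these genes were below 0, those of RPL23A were above 0 and 4 genes were mixed. In nonsense siRNA against untreated cells all sets of 16 genes were above 0, those of RPS15 were below 0 and 4 were mixed. In YAP siRNA against untreated cells 11 of 21 were mixed, 4 were all below and 6 all above 0. The 5 sets of RPS3A ran from -0.29 to -0.21 in the first comparison and from 0.25 to 0.39 in the second, and both sets of RPL31 were at -0.39 and -0.34 in the first. Sets of 1 gene can share sequence: 2 sets of RPL41 differed by at most 0.0006 on any array.

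**Figure D4:**
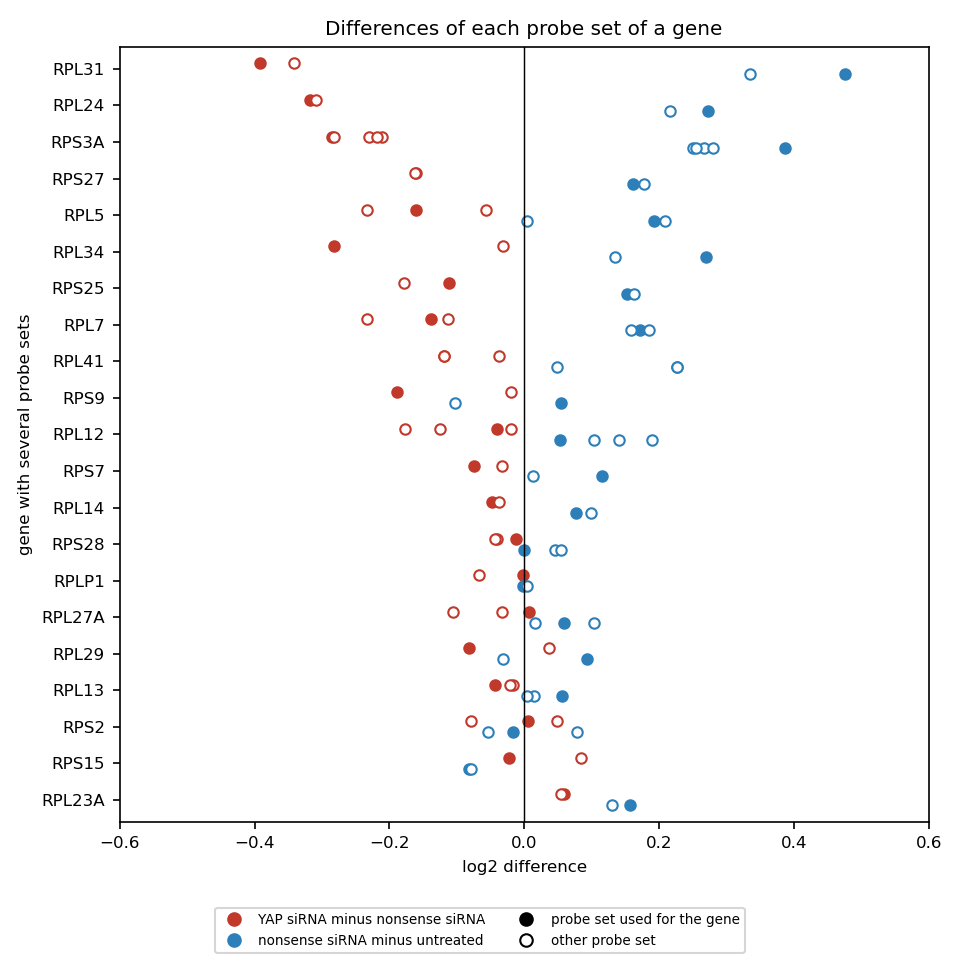
Log2 differences of every probe set of the 21 ribosomal protein genes with more than 1 (rows, ordered by the median of YAP siRNA minus nonsense siRNA), with filled points for the set used for the gene. The sets of RPL31, RPL24 and RPS3A lie on one side of 0 in each of the 2 comparisons plotted, and those of RPS2, RPL29 and RPS15 straddle 0 in at least 1 of them.

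Genes with and without a TOP tract at the RefSeq start were set side by side. Only a run beginning exactly at the listed start base was counted. Genes counted as without a tract can have one nearby, as in RPL10A, where a run of pyrimidines begins just after the listed start. The contrast therefore depends on the exact RefSeq start. In YAP siRNA against nonsense siRNA the 33 genes with a tract had a median of -0.10 and the 17 without had -0.03, and the 3 genes that passed were among the 33. In nonsense siRNA against untreated cells the medians were 0.09 and 0.06, and in YAP siRNA against untreated cells both were 0.01. These are descriptions with no test.

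For other parts of the translation machinery, counts of calls are given without a test over the lists. Over all genes 4.53% passed in YAP siRNA against nonsense siRNA and 0.614% in nonsense siRNA against untreated cells. In YAP siRNA against untreated cells it was 3.09%. Of 8 ribosomal proteins with other names, 5 were measured (FAU, RPL36AL, RPL22L1, RPL26L1 and RPL7L1), with 0 calls by limma in each comparison and at most 1 at an unadjusted p under 0.05. RPL22L1, the paralog of RPL22, was at -0.11 between YAP siRNA and nonsense siRNA. The 7 of 9 elongation factor genes measured also had 0 calls, with 0 at an unadjusted p under 0.05. Among 31 of 34 initiation factor genes, EIF3F, a subunit of the eIF3 complex, rose by 0.21 after YAP siRNA against nonsense siRNA (SE 0.0569, limma adjusted p = 0.0448), and EIF4G2, an eIF4G-related initiation factor, fell by 0.25 (SE 0.0564, limma adjusted p = 0.0188). EIF4G2 also fell by 0.23 against untreated cells (limma adjusted p = 0.0360). Between nonsense siRNA and untreated cells 0 genes of this list passed. In YAP siRNA against nonsense siRNA 9 of 31 were at an unadjusted p under 0.05, against 15.8% of all genes. There were 6 in nonsense siRNA against untreated cells (19.5% of all genes) and 2 in YAP siRNA against untreated cells (15.8%). Of the 9 fits on 8 arrays, 7 ended the EIF3F call (highest limma adjusted p 0.218, nonsense siRNA replicate 1 dropped). For EIF4G2, 3 ended the call against nonsense siRNA (0.134, nonsense siRNA replicate 1 dropped) and 5 that against untreated cells (0.161, untreated replicate 1 dropped).

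Of 15 measured other mRNAs with a TOP tract, EIF3F was the only call, in YAP siRNA against nonsense siRNA, and the medians were -0.07, 0.09 and 0.06 in the 3 comparisons. Among 22 of 23 genes for control of ribosomal protein mRNA translation, which include MTOR, LARP1 and the S6 kinases, PDCD4 was the only one that passed. PDCD4, an inhibitor of the helicase eIF4A that S6 kinase marks for degradation, had log2 signals of 7.51, 7.55 and 7.33 after YAP siRNA, 8.32, 8.37 and 8.36 after nonsense siRNA and 8.13, 8.15 and 8.17 in untreated cells. It fell by 0.89 against nonsense siRNA (limma adjusted p = 4.51e-07) and by 0.69 against untreated cells (1.46e-05), and passed in every fit that left out 1 array. For PDCD4 all nonsense siRNA arrays also lay above all untreated arrays, with a difference of 0.20 (SE 0.0598). This difference did not pass (limma adjusted p = 0.116).

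The 74 mitochondrial ribosomal protein genes, which serve the separate ribosomes of mitochondria, had medians of -0.02 in YAP siRNA against nonsense siRNA, 0.06 in nonsense siRNA against untreated cells and 0.04 in YAP siRNA against untreated cells. Only MRPL44 passed, falling by 0.24 in the first comparison (SE 0.0645, limma adjusted p = 0.0450), and the call ended in 7 of the 9 fits on 8 arrays (highest limma adjusted p 0.185, nonsense siRNA replicate 3 dropped). Of 56 snoRNAs that lie in introns of ribosomal protein genes, 32 were measured, and their medians were -0.10, 0.10 and -0.02 in the 3 comparisons. SNORD15B, within RPS3, fell by 0.33 after YAP siRNA against nonsense siRNA (limma adjusted p = 0.0263), while RPS3 was at 0.03. SNORD35A, within RPL13A, fell by 0.19 between YAP siRNA and untreated cells (limma adjusted p = 0.0477). Of the 9 fits on 8 arrays, 4 ended the SNORD15B call (highest limma adjusted p 0.149, nonsense siRNA replicate 1 dropped) and 8 the SNORD35A call (0.183, YAP siRNA replicate 2 dropped).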

How the data were processed

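The authors deposited log2 array signals, a unit read from the range of the values; how they were background-corrected, summarised and normalized is not given in the sources used here. Hep3B is the labelled cell line and was followed, although titles carry HUH. The annotation supplied with the data named the genes: 19460 probe sets had 1 gene, 1754 several and 12083 none listed. One probe set per gene was used, that with the highest mean over the 9 arrays. All columns were mapped (0 left out).

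All 9 arrays entered 1 fit of a group mean each (lmFit, contrasts.fit and eBayes of limma 3.58.1 in R 4.3.3, prior degrees of freedom 9.29), two-sided, with Benjamini-Hochberg adjustment over 18417 genes. The fit was tested on simulated data. YAP1 was also tested by exact permutation. Members, lists and the rule for named genes were chosen with earlier results of these data known. The rule named YAP1, members that passed, the 3 largest differences each way, the 3 brightest and dimmest, those with several probe sets, paralogs, P-stalk members, RPS6 and list genes that passed. Promoter sequences are RefSeq's (GRCh38.p14). Alternatives were other scalings, signal filters, probe set rules, variance models, array weights, only 6 arrays, the replicate number as a block, a threshold of 0.01 and leaving out each array. The number of arrays limits the precision. Figures used Python 3.11.15, matplotlib 3.10.9 and pandas 2.3.3.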

Additional observations from a re-analysis of the deposited data

How the results depend on the processing

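Across 18 alternatives the median difference of the ribosomal protein genes ran from -0.10 to -0.04 (YAP siRNA against nonsense siRNA). It ran from 0.03 to 0.11 (nonsense siRNA against untreated) and from 0.00 to 0.04 (YAP siRNA against untreated). Quantile normalization moved the first from -0.08 to -0.04 and the second from 0.08 to 0.03. All shifts were below the largest SD of the array medians within a group. That SD exceeds the median differences themselves, so this yardstick cannot show that they are stable. YAP1 kept its calls in both comparisons with YAP siRNA in all 19 alternatives computed for it. Counts of calls depended on the setting. For YAP siRNA against nonsense siRNA the family had 1 call after median centring, 0 with every probe set tested, 18 with array weights and 0 at an adjusted p under 0.01, and 0 to 13 when 1 array was left out; all genes had 673 after median centring, 424 with every probe set, 2404 with weights, 396 at 0.01 and 426 to 1231. For nonsense siRNA against untreated the family had 0 after median centring, 1 with the mean of a gene's probe sets, 0 with every probe set, 1 with trend and robust eBayes, 17 with weights, 1 with only 6 arrays, 0 at 0.01 and 0 to 15; all genes had 49 after median centring, 109 with the mean of probe sets, 0 with every probe set, 93 with trend and robust eBayes, 2620 with weights, 67 with only 6 arrays, 11 at 0.01, and 11 to 1470 when 1 array was left out. For YAP siRNA against untreated the family had 1 (RPL23A) after median centring, with the 50th percentile filter and with weights, and 0 to 1 when 1 array was left out; all genes had 531 after median centring, 578 of 9208 above the 50th percentile of signal, 205 with every probe set, 1759 with weights, 250 at 0.01 and 279 to 775. The cause was not tested. Array weights were lowest for nonsense siRNA replicate 2 (0.453) and YAP siRNA replicate 3 (0.462), and highest for nonsense siRNA replicate 1 (2.657) and YAP siRNA replicate 1 (2.65). Of all genes called in YAP siRNA against nonsense siRNA, 354 were higher and 480 lower, but 460 and 408 after quantile normalization. For nonsense siRNA against untreated they were 62 and 51, against 70 and 79 after quantile normalization and 32 and 17 after median centring, and for YAP siRNA against untreated 300 and 269, against 350 and 181 after median centring. No result changed direction while called.

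The replicate numbers did not pair the samples: same-numbered deviations correlated at 0.235, -0.298 and -0.337 for YAP siRNA and nonsense siRNA, at 0.0671, -0.173 and 0.0336 for nonsense siRNA and untreated cells, and at 0.0405, 0.251 and 0.344 for YAP siRNA and untreated cells, over genes, which are not independent, so no comparison had every pair over 0.1. With the replicate block the family had 4 calls in YAP siRNA against nonsense siRNA (789 of all genes), 1 in nonsense siRNA against untreated (65 of all genes) and 0 in YAP siRNA against untreated (509 of all genes). For the 47 named genes, 2521 values under an alternative kept their call or stayed close to the reported value, 97 lost a call, 51 gained one and 4 moved. Most of the 2521 were never called, so the 97 lost calls cannot be read as a share of them. Among called list genes, losses ran from 0 of 19 alternatives for PDCD4 to 14 of 19 for SNORD35A. The median SE of a difference in the family was 0.0672 with 3 arrays a group, which limits what could be detected.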
